A study of Mus musculus with 11 samples.

Results

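The regions described here were promoter peaks of CBX6 that were found in a single ChIP-seq library of mouse embryonic stem cells (ESCs). A peak belonged to the group if it was called in CBX6 ChIP replicate 1, overlapped by at least 1 bp no peak of CBX6 replicate 2, CBX7 or RING1B, and lay within 2500 bp of a gene start. The peaks were thus chosen by presence in the first list and absence from the others. Of the 21865 peaks of replicate 1, 8050 (36.8%) met these conditions. The 4 peak lists together held 36229 peaks. The remaining replicate 1 peaks were 3675 promoter peaks shared with at least 1 other list, 8787 peaks seen only in replicate 1 and away from gene starts, and 1353 shared peaks away from gene starts.

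The study asked where CBX6 sits in the ESC genome and how loss of CBX6 changes expression, and it comprised 11 samples, 7 from ChIP and 4 from RNA. All cells were E14Tg2A, a male mouse ESC line, grown without feeders in serum and LIF. CBX6 was precipitated with anti-HA from cells whose own Cbx6 gene carried a C-terminal triple HA tag, in 2 replicates. The tag was placed with CRISPR-Cas9. CBX7 and RING1B were each precipitated once from E14Tg2A cells, and the anti-HA and IgG control samples were not analysed here. RNA came from cells infected with a lentivirus for a control short hairpin RNA (shCtl, 2 libraries) or for one against Cbx6 (shCbx6, 2 libraries); which of the hairpins was used is not stated in the labels. Nothing in the labels says whether same-numbered or same-group samples came from separate cultures, so p-values measure the spread between these libraries only. Embryonic stem cell markers Pou5f1, Sox2, Nanog, Zfp42 and Esrrb were between 87.2 and 1452 FPKM (fragments assigned to a transcript, scaled to its length and to library size) in the 4 libraries.

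CBX6 is a chromodomain protein of Polycomb repressive complex 1 (PRC1), the complex that places ubiquitin on histone H2A through its RING1A or RING1B subunit. In ESCs, PRC1 is best known from CpG islands at the starts of silent developmental genes, where CBX7 is the better studied chromodomain subunit. CpG islands also cover the starts of most housekeeping genes, which are active and usually carry no Polycomb mark. Chromatin at active starts shears easily and is often over-represented in ChIP libraries, which is why an untagged or IgG control is run beside the sample.

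The promoters under the strongest peaks were mostly rich in the dinucleotide CG. The 150 bases before the gene start are given below in mm9 for the 5 protein-coding genes with the highest peak scores among peaks centred within 500 bp of a start, 5′ to 3′ on the strand of the gene, with every CG in capitals. Mll1 encodes a histone H3 lysine 4 methyltransferase, Ado a thiol dioxygenase and Stx8 a SNARE protein of endosomes.
Ypel5 (chr17:73185894-73186043, plus strand): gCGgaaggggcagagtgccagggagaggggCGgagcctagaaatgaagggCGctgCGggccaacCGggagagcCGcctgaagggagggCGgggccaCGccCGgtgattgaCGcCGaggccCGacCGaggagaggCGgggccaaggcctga
Mll1 (chr9:44689380-44689529, minus strand): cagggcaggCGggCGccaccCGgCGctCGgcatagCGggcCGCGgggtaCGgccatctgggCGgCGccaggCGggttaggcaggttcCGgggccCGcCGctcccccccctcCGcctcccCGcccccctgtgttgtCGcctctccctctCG
Ado (chr10:67011704-67011853, minus strand): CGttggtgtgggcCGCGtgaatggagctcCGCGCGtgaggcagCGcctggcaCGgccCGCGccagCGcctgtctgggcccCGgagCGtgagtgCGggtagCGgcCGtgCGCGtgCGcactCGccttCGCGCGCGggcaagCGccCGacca
Clptm1l (chr13:73741404-73741553, plus strand): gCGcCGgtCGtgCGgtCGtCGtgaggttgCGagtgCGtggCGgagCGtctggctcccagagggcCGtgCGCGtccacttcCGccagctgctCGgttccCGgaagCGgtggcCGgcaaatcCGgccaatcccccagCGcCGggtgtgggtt
Stx8 (chr11:67779545-67779694, plus strand): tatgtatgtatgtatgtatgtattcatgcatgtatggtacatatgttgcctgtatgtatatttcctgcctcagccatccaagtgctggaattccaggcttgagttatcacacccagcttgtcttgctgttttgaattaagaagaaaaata
These stretches held 14 CG in Ypel5, 19 in Mll1, 26 in Ado, 21 in Clptm1l and 0 in Stx8. The peaks at these genes scored 952, 824, 680, 653 and 597. Stx8 stood apart, with a repetitive stretch and no CG, so a high score was also reached without a CG in the 150 bases before the start. The same stretch of the 2 most highly expressed genes with no peak in any list, Eef1a1 (translation elongation factor 1 alpha) and Rplp1 (a large-subunit ribosomal protein), shows that CG dinucleotides were not missing there.
Eef1a1 (chr9:78336959-78337108, minus strand): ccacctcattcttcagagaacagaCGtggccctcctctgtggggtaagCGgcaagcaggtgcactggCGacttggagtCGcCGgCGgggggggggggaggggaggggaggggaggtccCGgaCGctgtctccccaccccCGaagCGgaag
Rplp1 (chr9:61762346-61762495, minus strand): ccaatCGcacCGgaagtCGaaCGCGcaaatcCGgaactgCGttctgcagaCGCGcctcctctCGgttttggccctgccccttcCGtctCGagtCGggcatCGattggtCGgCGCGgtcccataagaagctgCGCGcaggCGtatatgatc
Eef1a1 held 10 CG and Rplp1 held 20, at mean shCtl levels of 8092 and 4802 FPKM. Both genes have near-identical copies elsewhere in the genome, and reads that mapped to more than 1 place had been discarded, so both their level and their lack of a peak are uncertain.

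The peaks were of lower score and narrower than the shared promoter peaks. The score is the value MACS gave each peak, higher for a stronger call, and the lowest score in each of the 4 lists was 50.0. The median score was 108 (quartiles 74.9 and 158, range 50.0 to 1351), against 138 for shared promoter peaks and 76.5 for the replicate 1 only peaks away from gene starts. The median width was 1472 bp, against 1806 bp and 1261 bp in the same order. When all replicate 1 promoter peaks were ordered by score and cut into 10 bins, the share that no other list overlapped was 77.4% in the lowest bin (95% Wilson interval 74.9 to 79.7) and 44.6% in the highest (41.8 to 47.4). The highest bin still held 523 such peaks of 1173. All of these values describe a single library, and score and overlap were both part of how the list and the group were made, so no test was run. Intervals on shares of genes and peaks cover counting error only.

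The centres gathered just downstream of the gene start. The median centre lay 132.5 bp downstream (quartiles -86 and 385.5 bp, with upstream negative), and 69.9% of the centres were within 500 bp of a start. The peak itself covered a start in 6387 cases (79.3%). The shared promoter peaks were centred further into the gene, with a median of 260 bp and 55.7% within 500 bp. By the annotation, 32.7% of the centres lay in introns, 28.1% in non-coding exon sequence, 25.9% between genes and 13.3% in coding exons. Starts of protein-coding genes were near 7372 peaks (91.6%). Divergent gene starts within 1000 bp of each other, as at bidirectional promoters, were found at 11.3% of the peaks and at 5.82% of the shared promoter peaks.

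**Figure D1:**
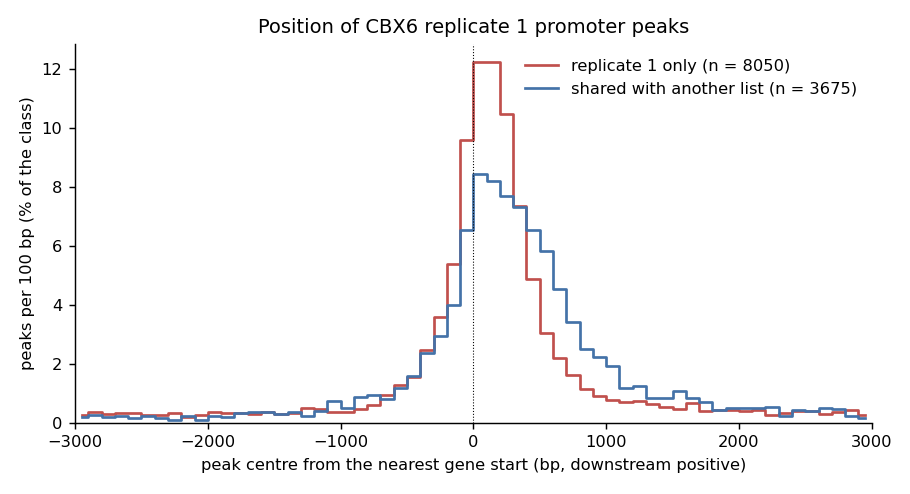
Position of replicate 1 promoter peaks, as the percent of peaks in each 100 bp bin (y axis) against the distance in bp from the peak centre to the nearest gene start (x axis, downstream positive). Red, the 8050 peaks seen only in replicate 1. Blue, the 3675 peaks shared with another list. Both classes are highest just downstream of the start, and the red line is narrower, with 69.9% against 55.7% of centres within 500 bp.

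Peaks at the edge of the rule were weaker than the group as a whole. The 253 peaks whose nearest start was more than 2000 and at most 2500 bp from the peak edge, just inside the window, had a median score of 74.1, and the 257 replicate 1 only peaks beyond 2500 and up to 3000 bp, just outside, had a median of 80.1. On the other edge, 76 peaks had a peak of another list within 500 bp without touching it (median score 83.8), and 18 promoter peaks touched another list by 1 to 100 bp and were counted as shared (median 79.1). The typical peak was far from any Polycomb peak, with a median gap of 84.6 kb to the nearest peak of another list.

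The 10 peaks of highest score were at genes of unrelated functions and included regions outside ordinary promoters. The highest score, 1351, belonged to a 6731 bp peak at chr17:39979560-39986290 beside AY036118, a pseudogene record at a locus known for ribosomal RNA repeat sequence. Trp53inp2, a regulator of autophagy, followed at chr2:155206985-155208393 with 1268, centred in exon sequence 893.5 bp after the start. Ypel5 was next, at chr17:73185093-73187402 with 952. Tgif1, a homeodomain repressor of TGF-beta signalling, had 931 at chr17:71196936-71204178, a peak of 7243 bp. The microRNA gene Mir22, its host transcript 2210403K04Rik and the neighbour Tlcd2 shared a peak of 917. Mll1 (824), Cpeb4 (775, an mRNA-binding translation regulator), the non-coding transcript 2410080I02Rik (755) and Brd2 (694, a bromodomain protein that reads acetylated histones) were also in the 10. The remaining peak, with 743.5, was on the mitochondrial genome at chrM:10859-14070 and lay near 15 mitochondrial gene starts, mt-Nd5 being the nearest. The 5 lowest scores were between 50.02 and 50.07.

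Several of these genes were expressed at low levels. Trp53inp2 was at 3.22 and 3.48 FPKM in the 2 shCtl libraries, Ypel5 at 4.22 and 5.28 FPKM, Mll1 at 7.03 and 4.17 FPKM, and Cpeb4 at 1.95 and 2.14 FPKM. Tgif1, with 137 and 167 FPKM, and Brd2, with 70.5 and 69.6 FPKM, were higher. In the shCbx6 libraries the levels were 3.48 and 3.95 FPKM for Trp53inp2, 123.1 and 138.2 FPKM for Tgif1, and 77.8 and 82.1 FPKM for Brd2.

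Genes under the peaks were active as a class. A total of 8080 of 21919 genes with both an expression value and coordinates (36.9%) had a replicate 1 only peak within 2500 bp of their start, and 247 of them also had a peak of another list there. Their median level was 11.3 and 11.8 FPKM in the 2 shCtl libraries and 10.9 and 11.3 FPKM in the 2 shCbx6 libraries. Genes with only a shared replicate 1 peak had medians of 0.377 and 0.371 FPKM in shCtl, and genes with no peak of the 4 lists 0.0131 and 0.00893 FPKM. By the mean of both shCtl libraries, 85.9% of the genes under replicate 1 only peaks were at 1 FPKM or more, against 37.9% of genes with shared peaks, 26.1% of genes with no peak and 50.0% of all genes. The class order was the same in each of the 4 libraries, and the expression values had no direct part in choosing the peaks. The rule left out peaks shared with lists whose peaks were more frequent at weakly than at highly expressed genes. The contrast with genes under shared peaks is therefore partly set by the rule. The RNA came from infected cells, so peaks and levels were not measured in the same culture.

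The share of genes carrying such a peak rose with expression and then levelled off. It was 3.49% of the 4901 genes listed at 0 FPKM in shCtl, 22.9% between 0.1 and 1 FPKM, 58.4% between 3 and 10 FPKM, 76.6% between 30 and 100 FPKM and 75.2% at 100 FPKM or more. Peaks of CBX6 replicate 2 went the other way over the expressed genes. They were at 30.9% of the starts between 0.1 and 1 FPKM and at 3.42% of those at 100 FPKM or more. At 100 FPKM or more, a CBX7 peak was present at 1.82% and a RING1B peak at 1.25% of the starts. Since the group leaves out every peak shared with these lists, its low share among weakly expressed genes is partly set by the rule, while the share at highly expressed genes is not, as few of those had a peak in another list.

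**Figure D2:**
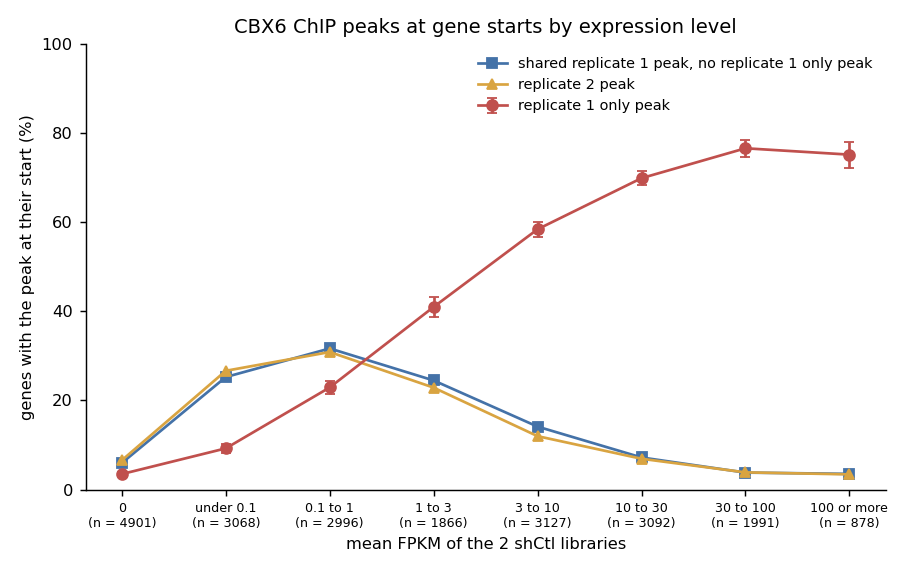
Percent of genes with a peak at their start (y axis) by mean FPKM of the 2 shCtl libraries (x axis, number of genes in brackets). Red circles, replicate 1 only peaks with 95% Wilson intervals. Blue squares, shared replicate 1 peaks at genes with no replicate 1 only peak. Yellow triangles, any CBX6 replicate 2 peak. The red line rises from 3.49% to 76.6% while the yellow line falls from 30.9% to 3.42% above 0.1 FPKM.

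Within the group, score said little about level. Across the 8080 genes, Spearman's rho between score and mean shCtl FPKM was 0.146 and Pearson's r on the log2 scale was 0.135. With the 6938 genes at 1 FPKM or more rho was 0.079. Genes share the same libraries and are not independent replicates, so these values are descriptions without a p-value. From the lowest to the highest of 5 score bins of equal size the median level went from 7.68 to 15.1 FPKM and the share at 1 FPKM or more from 76.1% to 91.2%. Score was more closely tied to the width of the peak (rho 0.649 over 8050 peaks) and to the GC share within 500 bp on either side of the start (rho 0.243). The 5 most highly expressed genes scored between 58.2 and 105, while the 660 genes at 100 FPKM or more had a median score of 122. Dppa5a, a pluripotency-associated RNA-binding protein at 4580 and 5397 FPKM in shCtl, scored 92.7, and the ferritin light chain gene Ftl1 at 4786 and 4668 FPKM scored 88.5. The remaining genes among the 5 most highly expressed were the short RNA genes Mir692-1, Snord47 and Snord99, whose FPKM rests on few bases. Snord47, for example, was at 17120 FPKM in one shCtl library and 2415 FPKM in the other.

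A small set of genes had a peak and very low RNA levels. A total of 397 genes (4.91%) were under 0.1 FPKM in both shCtl libraries, and 171 genes were listed at 0 in both. The 5 with the highest score were Mir22, which shares its peak with its host transcript, 5830403L16Rik (396), Mir706 (356), Mir688 (313) and Crh (298), the gene of corticotropin-releasing hormone. Except for Mir22, all of them were listed at 0 in the 4 libraries. The Mir entries are short (Mir706 is annotated as lincRNA), and FPKM is an unreliable measure of the activity of their starts. Crh and 5830403L16Rik are annotated as protein-coding.

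Base composition moved with the peaks, and it did so in a different way at active and silent genes. Among genes at 10 FPKM or more, the share with a replicate 1 only peak rose from 37.5% where the GC share was under 45% to 81.6% between 60 and 65% and 80.0% at 65% or more. Among genes under 1 FPKM it rose from 1.20% to 22.8% (between 55 and 60%) and was 13.3% at 65% or more, where 74.7% had a shared peak instead. The median GC share was 59.0% around the starts under the peaks, 61.9% at shared peaks and 47.9% at genes with no peak. The median ratio of observed to expected CpG was 0.740, 0.724 and 0.232 in the same order. Expression and base composition each went with the peaks when the other was held within a range, and neither was tested as a cause.

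Letter motifs of promoters were searched on both strands in the 300 bases from 250 before to 50 after the start. The GC box GGGCGG was in 64.2% of the promoters under the peaks, in 65.2% of those under shared peaks and in 44.6% of all 21919 promoters. The ETS core CCGGAAG, common in housekeeping promoters, was in 19.5%, against 5.98% of promoters under shared peaks and 11.0% of all. The NRF1 core GCATGCG was in 7.05% (4.39% of all), the YY1 core GATGGCG in 7.02% (4.20%), the TCTCGCG element in 6.03% (3.42%) and the E2F core TTCGCGC in 3.28% (1.99%). The E-box CACGTG was in 10.1% (7.88% of all and 10.2% under shared peaks) and CCAAT in 39.0% (38.2% and 32.9%). The TATA box TATAAA was in 6.20%, against 7.61% of promoters under shared peaks and 13.1% of all promoters. Held to genes at 10 FPKM or more and a GC share of 60 to 65%, the 1163 promoters under the peaks and the 166 with no peak had shares with overlapping 95% Wilson intervals. The GC box was in 78.0% and 80.1%, the ETS core in 25.1% and 28.9% and the TATA box in 3.96% and 4.82%. A match is a run of letters and no evidence of binding.

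Most genes of the lists of basic cell functions had a replicate 1 only peak, as most expressed genes did. All 13 chaperone genes had one, as had 11 of 12 translation factors, 13 of 15 splicing factors, 13 of 15 cell cycle genes, 17 of 20 chromatin regulators outside Polycomb, 15 of 18 aminoacyl-tRNA synthetases and 13 of 16 genes of DNA replication and repair. The share over all genes was 36.9%, and over autosomal genes at 10 FPKM or more it was 74.99%. Among the autosomal genes of all lists at that level it was 80.5% (182 of 226), near the share of expressed genes. No list was tested against it. The shares were lower for the respiratory chain (11 of 15), RNA polymerase II transcription (10 of 15), glycolysis (8 of 12), the proteasome (13 of 22), cytoplasmic ribosomal proteins (8 of 15) and replication-dependent histones (9 of 17, of which Hist1h1a, Hist1h3a and Hist1h4a lay near the same peak). The lists are short selections, and their order is not that of the whole families. By gene symbol, 39 of 58 translation initiation factors (67.2%), 60 of 79 cytoplasmic ribosomal proteins (75.9%) and 18 of 67 replication-dependent histones (26.9%) had such a peak, families that were picked after the data were seen. Hspa8, the constitutive HSP70, had 250 for a score and 2890 and 3471 FPKM in shCtl, and the mitochondrial HSP70 gene Hspa9 had 264 with 295 and 328 FPKM. Hnrnpk, an RNA-binding splicing factor, had 437 with 491 and 506 FPKM, and Srsf2 had 335 with 292 and 293 FPKM. Eif1, which selects the start codon, had 314, and the seryl-tRNA synthetase gene Sars 312. Brca1, of homologous recombination, had 316, Uhrf1, of maintenance methylation, 294, and Wee1, the mitotic brake kinase, 286. Hk2, the hexokinase of glycolysis, had 363, Polr2b 258, Ndufb5 198, Psmb1 180 and Rps3 152. The peak counted for Psmb1 was centred 97 bp from the start of its neighbour Tbp.

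Pluripotency factors and Polycomb subunits were among the genes with such peaks. Of 15 pluripotency factors 12 had a replicate 1 only peak and the other 3 (Esrrb, Nr0b1 and Dppa4) had no peak in any list. Pou5f1 had the highest score of the list, 473, from a 4415 bp peak at chr17:35639551-35643965 centred upstream of the start, followed by Sox2 with 340 at chr3:34547256-34550751 and Klf2 with 249. Nanog, at chr6:122656786-122658280, scored 163. Of 29 Polycomb subunit genes 21 had one (72.4%), a share near the 74.99% of autosomal genes at 10 FPKM or more, as was the 80.0% of the pluripotency factors. Ezh2, the methyltransferase of PRC2, scored 334, Phc1 312, Kdm2b, which brings PRC1 to CpG islands, 301, and Cbx6 itself 280, from an intronic peak at chr15:79661932-79665301. Cbx7 scored 89.6, Ring1 89.95 and Rnf2, the gene of RING1B, 152. The 5 subunit genes with shared peaks were Bmi1, Phc2, Yaf2, E2f6 and Mtf2. Among 12 genes of MAPK feedback and immediate response 6 had a replicate 1 only peak, with Spred1 at 531, Dusp6 at 289.5 and Etv4 at 282, and 5 more had only a shared peak. Ier3, one of the 6 (54.6), also had a shared peak of higher score (215).

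Lists of developmental, germline and tissue genes had few or no such peaks. None of the 20 developmental transcription factors, among them Gata4, Pax6, Sox17 and T, had a replicate 1 only peak and all 20 had a shared one, which follows in part from the rule since these are sites of RING1B and CBX7. None of 13 germline genes known as targets of PRC1.6, the PCGF6-containing PRC1, had one. This also follows in part from the rule, with 9 under a shared peak and 3 under a peak of another list only. Their median level was 2.03 FPKM in shCtl. Of the 12 fibroblast genes only Fn1 had one (score 140, with 154 and 128 FPKM in shCtl), and of 12 adult tissue genes only Apoa1 (127) and Gfap (126), which were under 0.5 FPKM in each library. The median shCtl level was 0.0244 FPKM for the fibroblast list and 0.111 FPKM for the adult tissue list. Over all genes the share was 9.26% above 0 and under 0.1 FPKM and 22.9% between 0.1 and 1 FPKM, so these low counts were near the background.

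**Figure D3:**
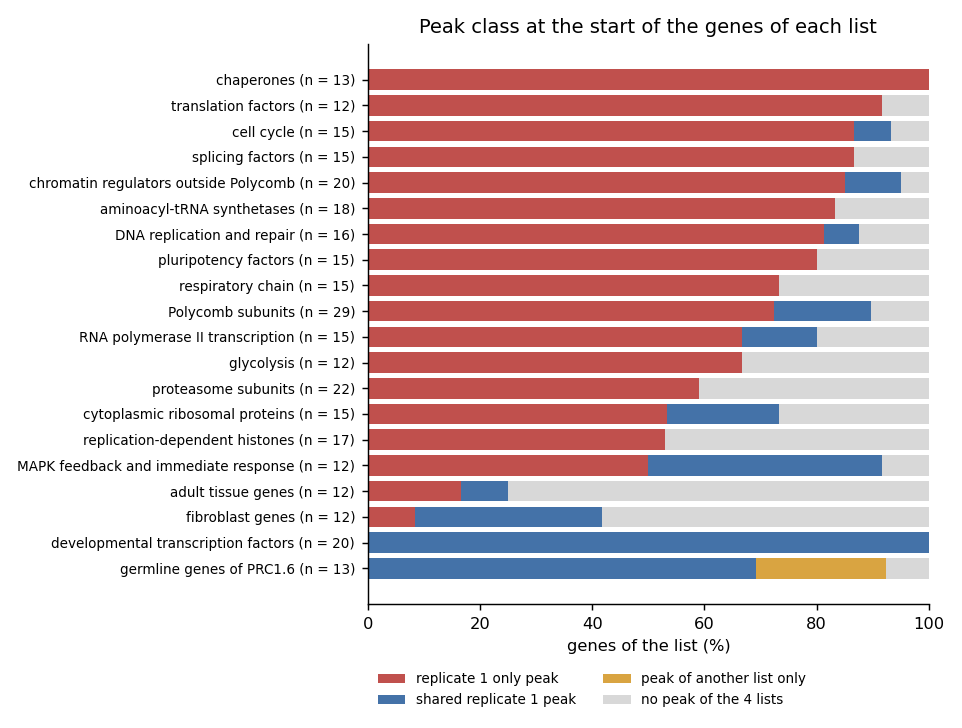
Peak class at the start of the genes of 20 lists, as percent of the genes of each list (x axis), with the number of genes in brackets. Red, replicate 1 only peak. Blue, shared replicate 1 peak. Yellow, peak of another list only. Grey, no peak of the 4 lists. Chaperones are red in 13 of 13 genes and developmental transcription factors blue in 20 of 20.

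The X chromosome was nearly free of these peaks. It held 21 of the 8050, and 22 of 991 X-linked genes (2.22%) had one, against 38.5% of autosomal genes. Among genes at 10 FPKM or more the shares were 7.69% (14 of 182, 95% Wilson interval 4.64 to 12.5) and 74.99% (73.9 to 76.1), and with a GC share of at least 60% besides, 6.67% (3 of 45) and 82.2%. The median level of the genes at 10 FPKM or more was 27.4 FPKM on the X and 28.7 FPKM on the autosomes. Autosomes ranged from 54.7% on chromosome 14 to 80.3% on chromosome 15. All 8 X-linked genes of the lists that were at 10 FPKM or more, among them Nr0b1, Rbbp7, Pgk1 and Rps4x, had no replicate 1 only peak, whereas 182 of 226 autosomal list genes (80.5%) had one. The gap went beyond this class of peaks. Of the whole replicate 1 list 0.242% of peaks were on the X, against 1.82% for replicate 2, 2.68% for CBX7 and 3.11% for RING1B. Replicate 1 overlapped 11.8% of the 136 CBX7 peaks on the X and 75.7% of those on autosomes, and 11.5% and 79.1% of the RING1B peaks. Replicate 2 overlapped 52.9% and 72.8% of the CBX7 peaks. E14Tg2A cells carry a single X. The read depth of the X in the ChIP and control libraries was not analysed here, and its part in the missing peaks was not tested.

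**Figure D4:**
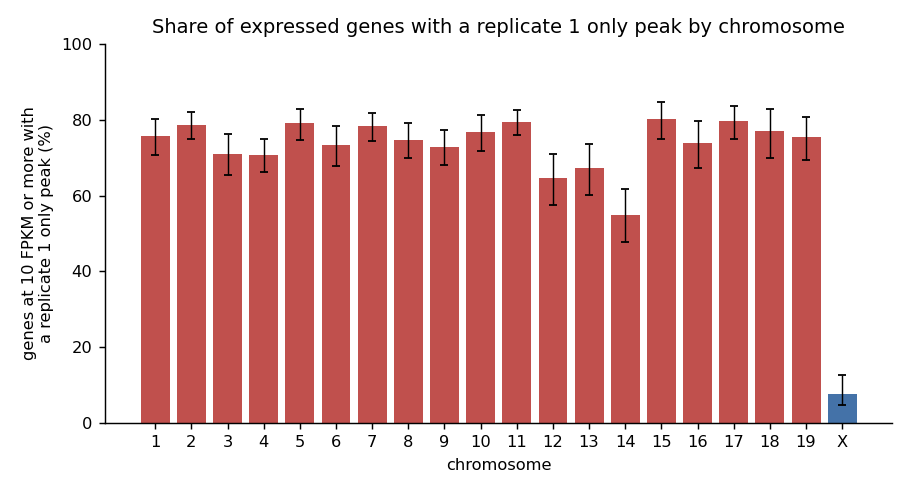
Percent of genes at 10 FPKM or more in shCtl with a replicate 1 only peak (y axis) for each autosome and the X chromosome (x axis). Bars start at 0 and lines are 95% Wilson intervals. Autosomes sit between 54.7% and 80.3% (red) and the X at 7.69% (blue).

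Few genes under the peaks passed the test after knockdown of Cbx6. The knockdown was checked first at Cbx6, which is itself under one of the peaks. Its level was 17.4 and 14.9 FPKM in the control libraries, against 9.53 and 5.40 FPKM after knockdown, so both shCbx6 libraries were below both shCtl libraries. The difference of -1.06 on the log2 scale (SE 0.263) did not pass the test over all genes (limma, adjusted p = 0.247). It was -1.42 without shCbx6 replicate 1 (limma, adjusted p = 0.0296) and -0.70 without shCbx6 replicate 2 (limma, adjusted p = 0.375), and the adjusted p went up to 0.833 over all alternatives. Of the 8080 genes, 7013 (86.8%) reached a mean of 1 FPKM in shCtl or in shCbx6 and were tested, with limma on log2(FPKM + 1), a scale that understates changes of weakly expressed genes. The filter lets in genes that reach 1 FPKM in only 1 group, and 75 of the 7013 did so in shCbx6 alone. At an adjusted p under 0.05, 0 of the 7013 were higher and 3 lower in shCbx6, where over all 11592 genes tested the shares called were 0.0431% higher and 0.0518% lower. Of these 3, the short RNA genes Scarna17 and Snord82 were listed at 0 in both shCbx6 libraries and entered the test only through shCtl. Without miRNA, snoRNA and snRNA genes, 1 lower call remained among 6941 genes. At an unadjusted p under 0.05, 238 were higher (3.39%, against 5.12% of all genes tested) and 429 lower (6.12%, against 6.55%). Held to genes at 1 FPKM or more in shCtl, these shares were 3.20% against 4.21% higher and 6.18% against 6.79% lower. With 2 libraries against 2, an exact permutation test on 1 gene cannot give a p below 0.333. The median log2 fold change was -0.02 for these genes and -0.01 for all genes tested. Without shCbx6 replicate 1 it was 0.0165 for these genes and 0.0320 for all genes tested. Both shCbx6 libraries lay above both shCtl libraries at 1149 of the genes (16.4%, where all genes gave 18.9%) and below them at 1717 (24.5%, where all genes gave 24.4%). At 1 FPKM or more in shCtl the shares above were 16.0% and 17.0%, and those below 24.7% and 25.3%.

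Past a ratio of 1.5 between the group means, with no test, 255 genes were higher (3.64%, against 7.63% of all genes tested) and 358 lower (5.10%, against 6.56%) in shCbx6. Genes under 1 FPKM in shCtl passed the filter only through shCbx6 and could not count as lower, and they gave 49 of the 255 rises and 330 of the 885 over all genes. Without shCbx6 replicate 1, and without shCtl replicate 2, the counts of rises and falls were both larger. They were not made over all genes in those settings, so no background can be set beside them. Genes with only a shared replicate 1 peak gave 21.9% higher and 10.5% lower. Of their 303 rises, 125 were of genes under 1 FPKM in shCtl, so the classes are better set side by side within a range of level from 1 FPKM up. Of all genes tested, 8.43% were higher between 1 and 10 FPKM and 2.11% between 10 and 100 FPKM. Between 1 and 10 FPKM in shCtl, 5.59% of the genes under replicate 1 only peaks and 7.49% of the genes with no peak were higher, and 7.45% and 10.4% lower, against 17.0% and 14.2% for genes with shared peaks. Between 10 and 100 FPKM these shares were 1.465% and 2.29% higher and 3.77% and 4.01% lower, against 7.69% and 5.69% for genes with shared peaks. At each of these levels the genes under replicate 1 only peaks were nearer to genes without a peak than to genes with shared peaks, a difference between classes that was not tested. From the lowest to the highest of 5 score bins, at 1 FPKM or more in shCtl, the share higher was 3.63%, 3.75%, 2.67%, 1.94% and 2.87%, and the share lower 5.08%, 4.55%, 6.20%, 4.60% and 5.38%.

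**Figure D5:**
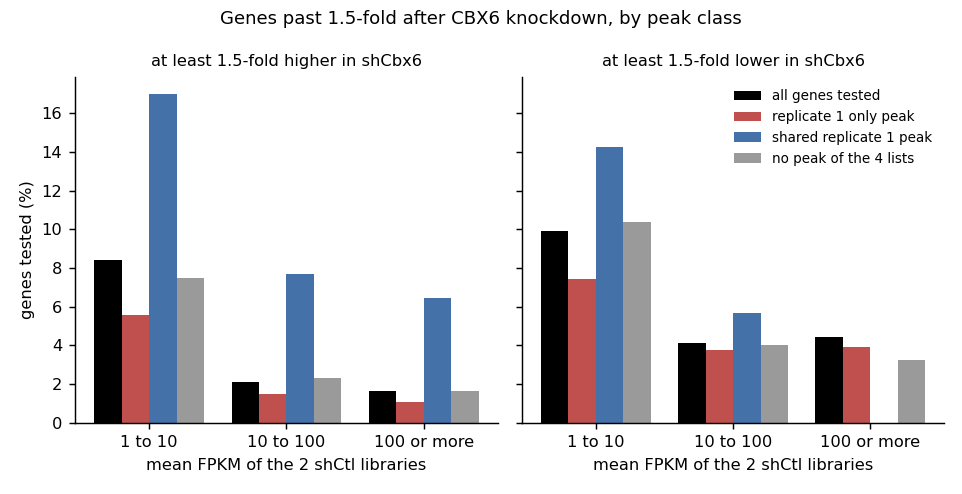
Percent of genes tested (y axis) whose mean FPKM was at least 1.5-fold higher (left) or lower (right) in shCbx6 than in shCtl, by mean shCtl FPKM (x axis). Black, all genes tested. Red, replicate 1 only peak. Blue, shared replicate 1 peak. Grey, no peak of the 4 lists. Genes under 1 FPKM are not drawn. Red bars lie below black bars at each of the 3 levels drawn, and blue bars are higher than red except for decreases at 100 FPKM or more, where no shared gene (of 31) fell past 1.5-fold.

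The genes named by rule for the 5 largest falls and 5 largest rises between non-overlapping groups were of mixed function. Emp1, an epithelial membrane protein gene, fell from 20.1 and 24.7 FPKM in the control libraries to 4.38 and 4.93 FPKM after knockdown. Its log2 fold change was -2.04 (SE 0.160, limma adjusted p = 0.0371), and its peak scored only 52.7. The limma adjusted p was 0.0901 without shCtl replicate 1 and 0.218 without shCtl replicate 2, and 0.179 with no filter on low levels, and its lowest value over the alternatives was 0.00708. The other 2 called genes were the short RNA genes Scarna17 (680 and 336 FPKM in shCtl) and Snord82 (155 and 307 FPKM). Both were listed at 0 in both shCbx6 libraries and entered the test only through shCtl. Neither a fold nor a p is given for them, since an entry of this length can be listed at 0 for lack of a few fragments. Inhbb, a subunit of activin and inhibin, was at 20.2 and 15.6 FPKM in the controls and at 4.47 and 2.02 FPKM after knockdown (log2 fold change -2.21, SE 0.313, limma adjusted p = 0.103), and its peak ended 101 bp from a peak of another list. Accsl was at 17.5 and 12.7 FPKM and then 3.58 and 2.16 FPKM (limma adjusted p = 0.0872). Without shCbx6 replicate 1 the limma adjusted p was 0.00865 for Inhbb and 0.0147 for Accsl, and over all alternatives it went up to 0.495 and 0.393.

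Among the differences upward, Dppa3, a maternal factor that guards DNA methylation in the zygote, was at 2.36 and 2.19 FPKM in the controls and at 27.0 and 57.1 FPKM after knockdown (log2 fold change 3.62, SE 0.349, limma adjusted p = 0.0732). Its limma adjusted p was 0.000976 and 0.00299 without shCbx6 replicate 1 and 2, 0.211 and 0.317 without shCtl replicate 1 and 2, 0.0388 with a pseudocount of 0.1 and 0.314 with no filter. Mycn, of the MYC family, was at 19.97 and 18.2 FPKM and then 54.3 and 87.0 FPKM (log2 fold change 1.80, SE 0.246, limma adjusted p = 0.103). The peaks at both genes had other lists nearby: a peak of another list was 1797 bp away at Dppa3 and 398 bp away at Mycn, whose peak scored 643, and both starts also had a peak of another list in their window. Rab25 (2.82 and 4.46 FPKM, then 15.1 and 21.8 FPKM; limma adjusted p = 0.0872) and Ctgf (4.22 and 4.04 FPKM, then 13.8 and 22.7 FPKM; limma adjusted p = 0.0976), an epithelial trafficking GTPase and a matrix-associated growth factor, were far from other lists. Mir707 was listed at 0 in both shCtl libraries and at 396 and 84.0 FPKM in shCbx6. It is a short entry that entered the test only through shCbx6, and neither a fold nor a p is given for it. None of these 5 passed the test with all 4 libraries, a pseudocount of 1 and no replicate block. Without shCbx6 replicate 1 the limma adjusted p was 0.00992 for Mycn, 0.0183 for Rab25 and 0.00759 for Ctgf, while over all alternatives it went up to 0.569, 0.358 and 0.530. Leaving out a library leaves 1 in its group, which the fit takes to vary as the other group does.

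In the gene lists, 0 members of any list passed limma's test at an adjusted p under 0.05 with all 4 libraries and no replicate block. The unadjusted p was under 0.05 for 6 of the 12 pluripotency factors, 2 of the 6 MAPK genes, 2 of the 21 Polycomb subunits (Rnf2 and Cbx6, the target of the hairpin) and 1 each of the 11 respiratory chain and 13 DNA replication genes. Over all genes tested, 5.12% were higher and 6.55% lower by that threshold, so the Polycomb, respiratory chain and replication counts were near or below the background. The factors Klf4, Tfcp2l1, Nanog, Zfp42 and Klf5 were lower and Lin28a, an RNA-binding protein that blocks let-7, was higher. Among the factors with no peak in any list, Esrrb and Nr0b1 also had both shCbx6 values below both controls (log2 fold change -0.76 and -0.53). Dppa4 overlapped. Klf4 was at 91.1 and 96.7 FPKM in the controls, then at 36.7 and 28.0 FPKM (log2 fold change -1.52, SE 0.177, limma adjusted p = 0.0842, or 0.0203 without shCbx6 replicate 1). Over all alternatives the value for Klf4 went up to 0.483. Tfcp2l1 had a log2 fold change of -1.23 (limma adjusted p = 0.274), which was -1.71 (0.0215) without shCbx6 replicate 1 and -0.74 (0.396) without shCbx6 replicate 2. Nanog was at 321 and 359 FPKM and then 204 and 192 FPKM (log2 fold change -0.78, SE 0.160, limma adjusted p = 0.188). Lin28a was at 80.2 and 80.3 FPKM and then 117 and 132 FPKM (log2 fold change 0.62, SE 0.146, limma adjusted p = 0.235). At Klf4, Tfcp2l1, Nanog and Lin28a the groups did not overlap. Pou5f1 and Sox2, with the highest scores of the list, had adjusted p-values of 0.604 and 0.905 by limma. The levels of 6 fibroblast markers summed to 1.72 and 1.69 FPKM in the controls, then to 1.36 and 4.67 FPKM, of which Thy1 gave 3.82 FPKM, and Lum was at 0 in all 4 libraries. Of the longer list of 12 fibroblast genes, 4 had both shCbx6 values above both controls (Col1a1, Col1a2, Col3a1 and Dcn, all under 0.6 FPKM in each library), 3 had both below, and 5 overlapped. Fn1 (154 and 128 FPKM, then 128 and 92.2 FPKM) and Vim (53.3 and 43.9 FPKM, then 34.9 and 42.0 FPKM) had both shCbx6 values below both controls without passing the test (limma adjusted p = 0.590 and 0.548). The part of a changed cell mixture in the differences was not tested. In bulk RNA, fewer cells of a kind and less RNA per cell cannot be told apart.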

How the data were processed

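ChIP-seq and RNA-seq files of E14Tg2A ESCs were used as deposited. The authors aligned ChIP reads to mm9 with Bowtie, keeping reads with a single mapping place, and called peaks with MACS for each sample; the deposited BED lists give a score per peak, and the control of each call and read depths are not given in the sources used here. The authors made the FPKM values with TopHat and Cufflinks on RefSeq transcripts; versions are not given in the sources used here, no counts were used, and the depth behind each FPKM value is unknown.

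Gene starts were the 5′ ends of 37310 gene records of GENCODE vM1 (mm9). FPKM symbols were linked by name (21149) or by a RefSeq synonym from the GRCm38.p6 table, used for names only (770); 21919 of 23288 symbols were linked. The members, gene lists, motifs and tests were chosen with earlier results of these data known. Genes were tested with limma 3.58.1 (R 4.3.3; lmFit, eBayes with trend, two-sided, Benjamini-Hochberg) on log2(FPKM + 1) with a group mean of at least 1 FPKM, 2 libraries against 2, a script tested on simulated data. Named genes were the 10 peaks of highest score, the 5 most expressed genes, the 5 of highest score under 0.1 FPKM, the 5 largest rises and 5 largest falls among non-overlapping genes, limma calls, and the highest scores of each list; genes of the lists with an unadjusted p under 0.05 were picked after their values were seen. Of 20 gene lists, 1 gene (Cbx5) was not matched. Shares carry 95% Wilson intervals from scipy 1.17.1.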

Additional observations from a re-analysis of the deposited data

How the results depend on the processing

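The number of replicate 1 only promoter peaks was between 7238 and 9384 under 5 alternatives (1 kb window, other lists widened by 1 kb, overlap of at least 50%, all transcript starts, protein-coding starts; the last pair was added after the data were seen) and 4440 with scores of at least 100. The median level of the genes was 12.5 FPKM with the 1 kb window, 13.7 FPKM with scores of at least 100 and 12.5 FPKM for protein-coding genes, and the share at 1 FPKM or more 87.5%, 89.5% and 88.4% in the same order, 86.2% with other lists widened and 86.4% for genes with no other peak at any start. Leaving out each shCtl library gave 11.3 to 11.8 FPKM and 85.5 to 85.7%. Spearman's rank correlation between score and level was 0.079 at 1 FPKM or more. The X share at 10 FPKM or more was between 3.30% and 7.78% under 5 alternatives added after the data were seen, and the autosomal share between 49.7% and 75.1%.

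Limma calls among the genes were 2 higher with a pseudocount of 0.1, 1 higher without the filter, where none of the 3 calls of the setting reported was kept, and 1 lower without miRNA, snoRNA and snRNA genes. Over all genes tested, the calls in these settings were 17 of 11592, 26 of 23288 and 6 of 11466 in the same order. Calls were between 0 and 48 higher and 3 and 79 lower when 1 library was left out, in a fit where the lone sample is assumed to vary like the other group. Counts past 1.5-fold were then 197 to 475 higher and 382 to 630 lower, and the median log2 fold change went from -0.0594 (without shCtl replicate 1) to 0.0182, with the sign turned without shCtl replicate 2 (0.0182) and without shCbx6 replicate 1 (0.0165). At 2-fold the counts by the ratio of group means were 95 higher and 114 lower. At 1.5-fold they were 512 and 544 without the filter, and 162 and 230 with a filter of 5 FPKM. No share over all genes was made for these settings, so these counts cannot be set against the background. With the replicate number as a block, calls were 61 higher and 123 lower of 7013, where 388 of all 11592 genes tested were called. The larger number of calls was thus not particular to these genes. Same-numbered libraries deviated from their group means with a correlation of 0.266. There are 2 pairs and no label naming a shared batch, so the number may be only a name. The cause of these shifts was not tested. Among the genes of the lists, that block passed Klf4 (limma adjusted p = 0.0216), Brca2 (0.0356), Cbx6 (0.0425), Nanog (0.0449), Tfcp2l1 (0.0459) and Lin28a (0.0489), and among the genes with the largest differences Rab25 (0.00701), Dppa3 (0.0143), Ctgf (0.0286) and Mycn (0.0308) besides Inhbb and Accsl. The genes with the largest differences, and those of the lists with an unadjusted p under 0.05, were refitted under each alternative and had the same direction in every fit that gave a value. Other named genes were not refitted singly. The FPKM table gives no counts, so counting error could not be set beside any level.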

Other observations

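Gene families picked by symbol after the data were seen differed widely in how often they carried the peak, and also in expression level. Autosomal genes at 10 FPKM or more had a share of 74.99%, near that of several of the highly expressed families. A replicate 1 only peak was at 25 of 28 RNA polymerase subunit genes (89.3%, 95% Wilson interval 72.8 to 96.3; median shCtl level of the family 47.97 FPKM), 60 of 76 mitochondrial ribosomal protein genes (78.9%), 60 of 79 cytoplasmic ribosomal protein genes (75.9%), 28 of 37 genes of complex I (75.7%) 21 of 30 Mediator subunit genes (70.0%) and 39 of 58 translation initiation factor genes (67.2%), but at 21 of 40 proteasome subunit genes (52.5%), whose median level was 137 FPKM, and at 18 of 67 replication-dependent histone genes (26.9%). Of the small nucleolar RNA genes with an FPKM value, 56 of 88 had one (63.6%). Shares were 58.2% for 67 Rab GTPases, 51.5% for 355 zinc finger proteins and 37.5% for 368 solute carriers, the last near the 36.9% of all genes. Among families with a median under 0.2 FPKM the peak was at 0 of 39 Hox genes, of which 37 had a shared peak, 0 of 19 Wnt ligands (17 with a shared peak), 8 of 45 Fox genes (28 with a shared peak), 8 of 81 potassium channels (43 with a shared peak), 4 of 47 keratins, 0 of 42 beta defensins, 1 of 1105 olfactory receptors and 0 of 319 vomeronasal receptors, but at 87 of 457 microRNA genes (19.0%), whose FPKM is a poor measure. The low counts in families with many shared peaks, such as Hox genes and Wnt ligands, follow in part from the rule. Shared peaks were at 3 olfactory receptors and 0 vomeronasal receptors, and the median GC share around the starts was 39.0% for olfactory receptors and 64.7% for Wnt ligands.

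By gene type, a peak was near 477 of 1273 lincRNA starts (37.5%), close to the 35.2% of 22380 protein-coding starts, and near 11.7% of 1552 snoRNA starts, 11.7% of 1577 miRNA starts and 3.27% of 5201 pseudogene starts, with or without an FPKM value.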
